A study of Mus musculus with 209 samples.

Results

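The mammalian de novo DNA methyltransferase genes measured here are Dnmt3a, Dnmt3b and Dnmt3l, chosen by symbol, which makes 3 of the 24450 gene rows in the count tables. Their counts were read in single-cell RNA-seq of mouse MII oocytes and 2-cell samples and in RNA-seq of epiblast, the layer of the embryo that gives rise to the body. The single-cell libraries came from 19 knockout (KO) and 14 wild-type (WT) oocytes and from 9 KO and 8 WT 2-cell samples. The label of the KO, N14 maternal KO, was taken to mean that the mothers lack Nlrp14, whose product the egg stores, and the WT carries no named allele. The females were C57BL/6, aged 6 to 8 weeks and superovulated. Oocytes were collected 14 to 15 hours and 2-cell samples 42 to 43 hours after hCG, and the fathers are given for the study's embryos as C57BL/6 or PWK, without saying which sired each library. The labels do not say how the KO allele was made, whether a 2-cell library is 1 blastomere, or which animal a cell came from. The epiblast samples, WT with C57BL/6 parents on both sides, were 2 labelled IVC and 2 from E6.5 embryos labelled ND, an abbreviation the labels do not explain.

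DNMT3A and DNMT3B add methyl groups to CpG sites that carry none, whereas DNMT1 copies existing marks after DNA replication. DNMT3L resembles them but has no catalytic activity of its own. It binds them and stimulates their work, and it recognises histone H3 tails that lack methylation at a particular lysine. In mouse, Dnmt3a and Dnmt3l are needed in the growing oocyte to lay down its methylation, maternal imprints included. Dnmt3b is known for its part in the wave of methylation around implantation, when the epiblast genome is methylated anew.

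The start regions of Dnmt3b and Dnmt3l are printed because they differ in the very sequence these enzymes act on. They come from RefSeq on build GRCm38.p6, each a window of 300 bases around an annotated start, on the + strand, and all 3 symbols matched. Capitals mark every CpG.
Dnmt3b, chr2:153649199-153649498: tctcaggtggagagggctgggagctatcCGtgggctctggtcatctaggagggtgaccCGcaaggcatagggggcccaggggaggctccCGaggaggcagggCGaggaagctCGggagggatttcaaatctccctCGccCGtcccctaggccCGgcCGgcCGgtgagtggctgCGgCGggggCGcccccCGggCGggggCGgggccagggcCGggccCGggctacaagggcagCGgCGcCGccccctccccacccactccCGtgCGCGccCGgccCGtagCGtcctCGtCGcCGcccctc
Dnmt3l start 1, chr10:78042037-78042336: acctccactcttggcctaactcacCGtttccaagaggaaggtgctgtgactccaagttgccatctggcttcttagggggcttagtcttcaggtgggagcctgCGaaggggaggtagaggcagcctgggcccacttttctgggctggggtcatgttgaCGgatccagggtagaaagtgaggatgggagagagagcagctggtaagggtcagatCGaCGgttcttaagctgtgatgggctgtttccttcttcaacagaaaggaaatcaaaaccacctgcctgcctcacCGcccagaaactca
Dnmt3l start 2, chr10:78049592-78049891: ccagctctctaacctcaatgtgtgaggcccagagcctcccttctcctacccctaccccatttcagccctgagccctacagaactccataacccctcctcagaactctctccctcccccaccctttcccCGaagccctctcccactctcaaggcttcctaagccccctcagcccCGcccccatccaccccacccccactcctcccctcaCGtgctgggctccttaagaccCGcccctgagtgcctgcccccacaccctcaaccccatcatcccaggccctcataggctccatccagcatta
Dnmt3l start 3, chr10:78055085-78055384: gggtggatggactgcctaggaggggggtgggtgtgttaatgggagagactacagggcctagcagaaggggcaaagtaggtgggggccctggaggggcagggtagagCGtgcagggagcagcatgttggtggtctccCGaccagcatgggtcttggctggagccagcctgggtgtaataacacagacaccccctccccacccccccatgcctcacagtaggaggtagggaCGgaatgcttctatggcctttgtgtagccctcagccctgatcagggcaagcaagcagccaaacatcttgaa

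The Dnmt3b window held 30 CpG sites, a number that 11.7% of the 32851 mouse start windows of 300 bases in the same table reached, where the median window held 7. The 3 Dnmt3l windows held 6, 4 and 3, which 56.4, 68.6 and 76.7% of windows reached. Dnmt3a has 3 annotated starts on chromosome 12, with 46, 47 and 18 CpG sites. The counts are per gene, so they do not say which start was used, and the tables name genes by symbol on build mm9, so no position was carried over to them.

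The KO oocytes were sequenced to 4585916 to 10637866 gene counts and the WT oocytes to 3933604 to 13052327. Among 2-cell samples KO libraries reached 2704050 to 15007301 counts and WT libraries 3788348 to 10303580. Depth in epiblast was 10377163 and 10241401 counts for IVC, against 11826853 and 24047088 for E6.5. Levels are given as CPM, a gene's count scaled to a common library total. Nlrp14 stood at 0.643 to 73.2 CPM in KO oocytes against 225 to 3307 CPM in WT oocytes, and at 29.4 to 86.4 CPM in KO against 106 to 477 CPM in WT 2-cell samples, without overlap at either stage. All 8 oocyte marker genes had counts in all 4 single-cell groups and none in either epiblast group. The oocyte libraries fall into sets that are not groups of the study: 7 KO and 10 WT carried spike-in RNA above 0.01% of counts, 10 KO and 3 WT carried less and had the ribosomal transcript Rn45s under 1% (low-rRNA), and 2 KO and 1 WT remained. All 17 2-cell libraries belonged to the spike-in set. WT 2-cell replicate 8 stood apart from its group, with 4.00% of all allele-assigned counts paternal, where the other WT libraries had 9.03 to 24.7% and KO libraries 1.21 to 8.68%. It also had the lowest Nlrp14 of the WT 2-cell samples. With no animal named, each single-cell group counts as 1 sample, so no test was run on it, and the intervals, all at 95%, cover counting error only.

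Across the stages the 3 genes took different courses. Dnmt3a was highest in epiblast and lowest in 2-cell samples, Dnmt3b was low in oocytes and 2-cell samples and high in epiblast, and Dnmt3l was, in the pools, highest in 2-cell samples and lowest in epiblast. Pooled over libraries, Dnmt3a stood at 227 CPM in KO oocytes and 185 CPM in WT oocytes, at 75.8 CPM in KO and 83.5 CPM in WT 2-cell samples, and at 324 CPM in IVC and 499 CPM in E6.5 epiblast. Dnmt3b stood at 32.1 and 19.2 CPM in KO and WT oocytes, at 17.5 and 16.6 CPM in KO and WT 2-cell samples, and at 438 and 3912 CPM in IVC and E6.5 epiblast. For Dnmt3l the levels were 25.3 and 22.3 CPM in KO and WT oocytes, 66.5 and 74.2 CPM in KO and WT 2-cell samples, 0 CPM in IVC epiblast and 9.09 CPM in E6.5 epiblast. Neighbours in these orders with overlapping libraries were KO and WT at both stages for all 3 genes, and oocytes and 2-cell samples for Dnmt3b and Dnmt3l. For Dnmt3a, 2-cell samples overlapped with WT oocytes, and IVC epiblasts with the highest oocytes. For Dnmt3l, E6.5 epiblasts overlapped with the lowest oocytes, KO replicate 5 at 5.79 CPM and WT replicate 12 at 6.44 CPM. The single cells and the epiblasts came from separate count tables and kinds of library, so levels set across them carry that difference.

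**Figure D1:**
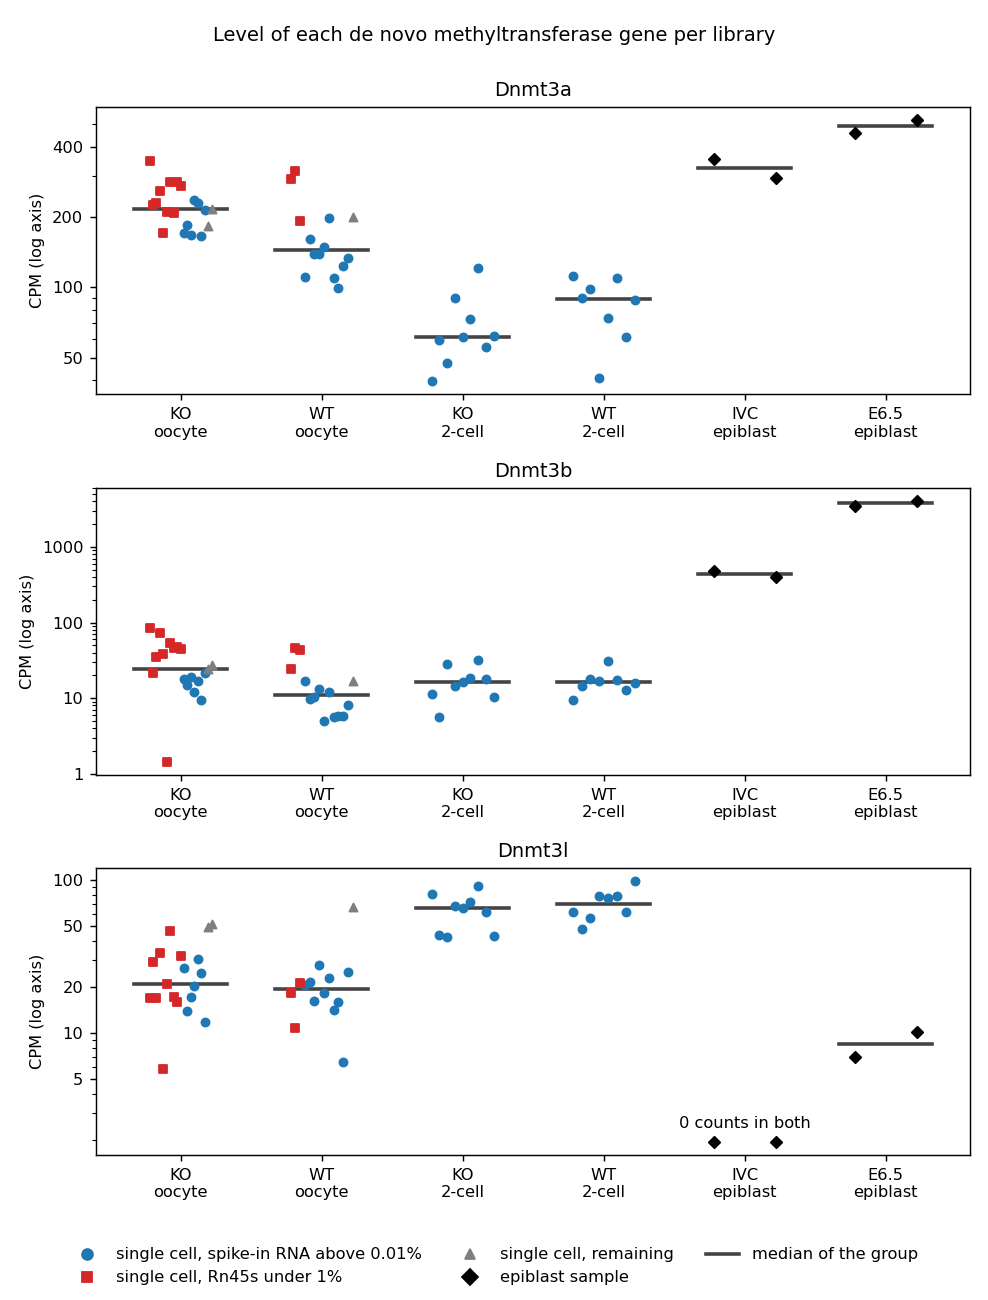
Level of Dnmt3a, Dnmt3b and Dnmt3l in each of the 54 libraries, in CPM on log axes, by group. Symbols give the library set and bars the group median. Dnmt3l libraries of 2-cell samples lie at 42.5 CPM or more, and both IVC epiblasts had 0 counts, drawn at the lower edge.

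Dnmt3a, the main de novo enzyme of the oocyte, was lower in 2-cell samples than in oocytes. In KO 2-cell samples it ranged from 39.5 over a median of 61.2 to 121 CPM, against 165 over 216 to 346 CPM in KO oocytes, so the groups did not overlap. In WT 2-cell samples it ranged from 40.8 over 89.2 to 111 CPM, against 98.9 over 144 to 314 CPM in WT oocytes, so the groups overlapped. The pooled log2 ratio of 2-cell samples to oocytes was -1.58 (-1.62 to -1.54) in KO and -1.15 (-1.20 to -1.10) in WT. Within spike-in libraries it was -1.37 (-1.42 to -1.33) in KO and -0.73 (-0.79 to -0.68) in WT, so the WT difference was under 2-fold there. As background, a level 2-fold or more below that of oocytes was found for 17.4% of 7179 genes in KO and 14.3% of 8532 genes in WT, and for 16.3% and 12.8% within spike-in libraries. Over all genes compared the median ratio was 0.23 in KO and 0.64 in WT. Scaled by TMM factors, an alternative to library totals, Dnmt3a stood at -2.22 in KO and -2.06 in WT. These factors did not centre the median of all genes, which is given with Dnmt3l below.

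Dnmt3l, the cofactor without catalytic activity, was the 1 member of the 3 that stood higher at the 2-cell stage in both genotypes over all libraries. KO 2-cell samples held 42.5 over a median of 65.7 to 92.01 CPM, against 5.79 over 21.0 to 52.1 CPM in KO oocytes. WT 2-cell samples held 47.8 over 69.8 to 98.9 CPM, against 6.44 over 19.5 to 67.0 CPM in WT oocytes. The oocytes that reached the 2-cell range were KO replicates 7, 18 and 19, at 46.6, 49.2 and 52.1 CPM, and WT replicate 14, at 67.0 CPM, none of them a spike-in library. Within spike-in libraries, where KO oocytes reached 30.6 CPM and WT oocytes 27.8 CPM, the stages did not overlap in either genotype. The pooled log2 ratio was 1.40 (1.33 to 1.46) in KO and 1.73 (1.66 to 1.81) in WT, or 1.62 (1.53 to 1.71) and 1.97 (1.87 to 2.06) within spike-in libraries. As background, 23.6% of genes in KO and 41.1% in WT stood 2-fold or more above oocytes, and 19.5% and 42.1% did within spike-in libraries, so a level of this kind was common. Scaling by TMM factors left the Dnmt3l ratio positive but under 2-fold, at 0.76 in KO and 0.82 in WT, and moved the median of all genes to -0.50 in KO and -0.43 in WT. It also turned the balance of all genes, to 663 higher and 2385 lower in KO, where CPM gave 1691 and 1246, and to 1921 higher and 2921 lower in WT, where CPM gave 3507 and 1224. Spike-in RNA took 0.0285 to 0.0389% of counts in KO spike-in oocytes, against 0.0478 to 0.0957% in KO 2-cell libraries. In WT it took 0.0382 to 0.0586%, against 0.0583 to 0.135%. Ratios per spike-in count were not computed, so the size of the Dnmt3l difference on that scale was not tested.

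Dnmt3b, the second catalytic enzyme, gave no stage difference whose direction held. It ranged from 5.57 over a median of 16.4 to 32.4 CPM in KO 2-cell samples, against 1.44 over 24.2 to 85.0 CPM in KO oocytes. WT 2-cell samples ranged from 9.44 over 16.4 to 31.3 CPM, against 5.02 over 11.2 to 46.5 CPM in WT oocytes. The pooled log2 ratio was -0.88 (-0.98 to -0.78) in KO and -0.21 (-0.34 to -0.09) in WT, but 0.16 (0.03 to 0.29) and 0.84 (0.68 to 1.00) within spike-in libraries. Without WT oocyte replicate 2, a low-rRNA library at 46.5 CPM, the WT ratio was 0.10, and under TMM factors it was -1.13.

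**Figure D2:**
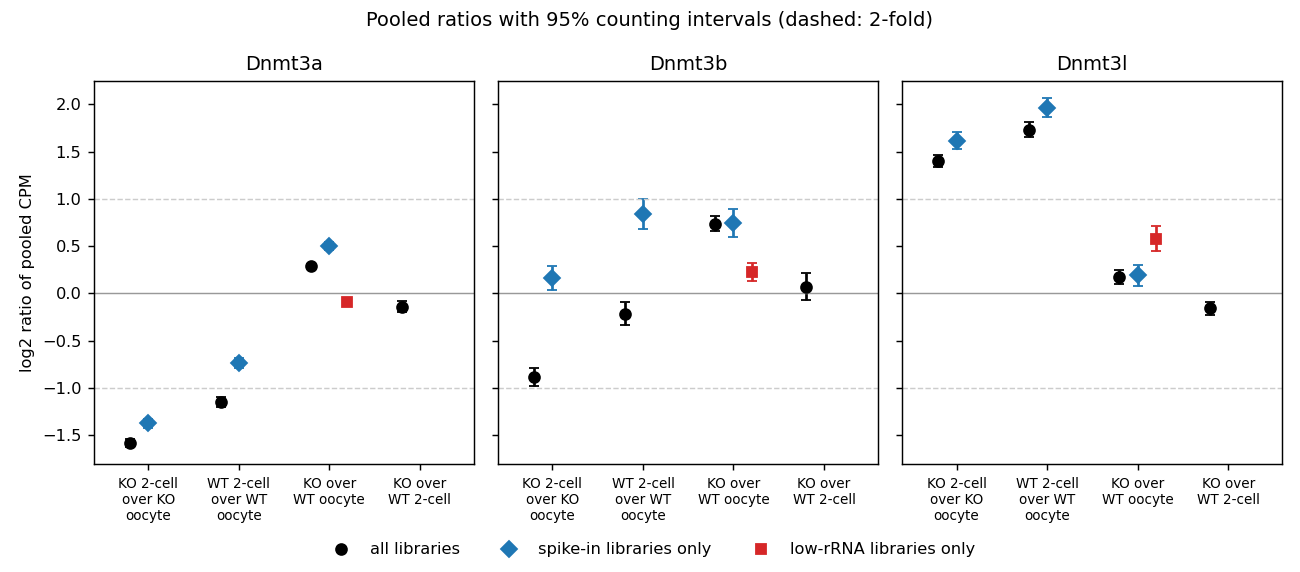
Log2 ratio of pooled CPM for each gene in 4 comparisons, with bars for the 95% counting interval and dashed lines at 2-fold. Symbols give all libraries, spike-in libraries only or low-rRNA libraries only. Dnmt3l lies above the upper dashed line in both stage comparisons, and the Dnmt3b stage ratios of all libraries and of spike-in libraries lie on either side of 0.

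The counts of 1 gene over those of another in the same library do not depend on the scaling. The ratio of Dnmt3l to Dnmt3a separated the stages in every library. For each 100 counts of Dnmt3a there were 87.7 of Dnmt3l in the KO 2-cell pool, against 11.1 in the KO oocyte pool. In WT there were 88.9 in the 2-cell pool, against 12.05 in the oocyte pool. The log2 ratio of Dnmt3l to Dnmt3a per library ran from -0.52 to 1.05 in KO 2-cell samples, against -4.87 to -1.90 in KO oocytes, and from -0.91 to 0.96 in WT 2-cell samples, against -4.86 to -1.57 in WT oocytes. The stages did not overlap in either genotype, and the pooled difference was 2.98 in KO and 2.88 in WT, or 2.99 and 2.70 within spike-in libraries. KO and WT 2-cell pools differed by -0.02 in this ratio. These counts are not set per transcript length, so only differences between groups are read from them.

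The ratio of Dnmt3b to Dnmt3a was also higher at the 2-cell stage in the pools. The 2-cell pools held 23.0 counts of Dnmt3b in KO and 19.9 in WT for each 100 of Dnmt3a, against 14.2 in KO and 10.4 in WT oocyte pools. The log2 difference between the stages was 0.70 in KO and 0.94 in WT over all libraries, and 1.54 and 1.57 within spike-in libraries, with overlapping libraries. In epiblast, IVC held 135 and E6.5 held 784 counts of Dnmt3b for each 100 of Dnmt3a.

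**Figure D3:**
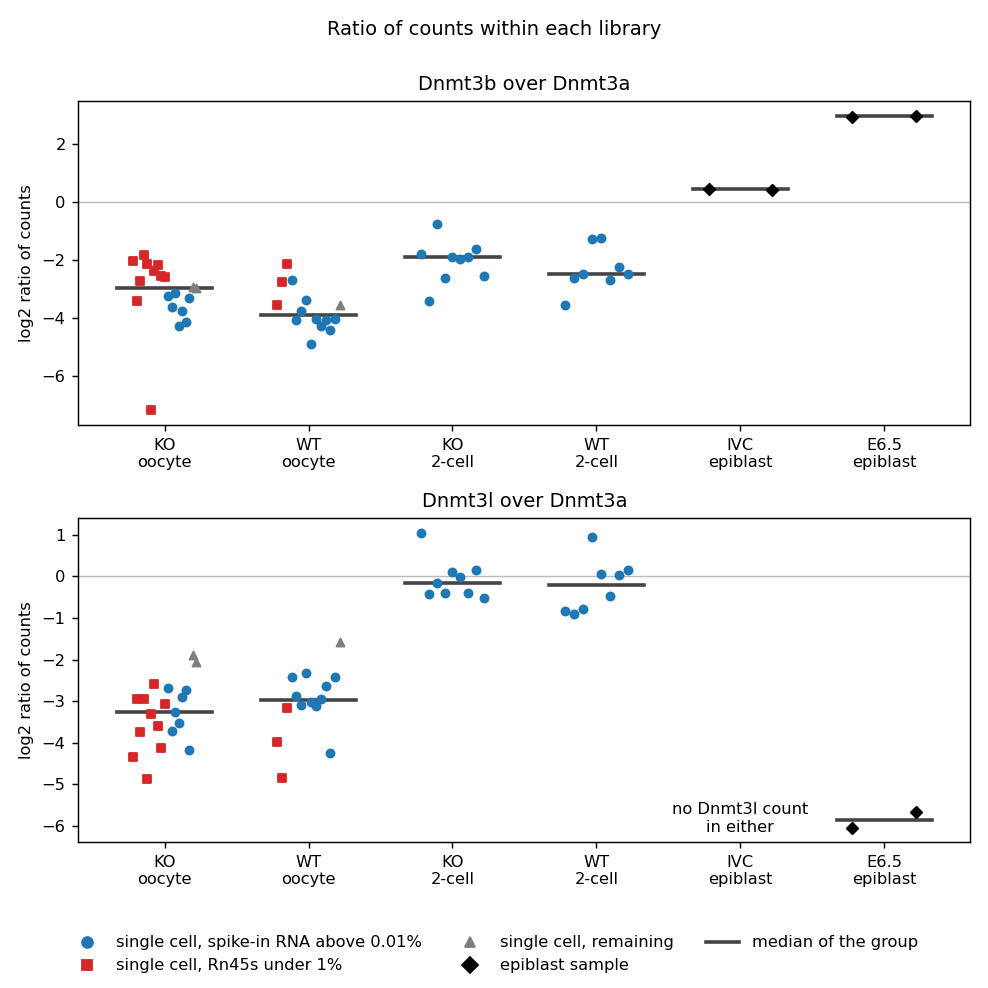
Log2 ratio of Dnmt3b and of Dnmt3l counts to Dnmt3a counts within each library, by group, with bars at the median. All 2-cell libraries lie at or above -0.91 for Dnmt3l over Dnmt3a and all oocytes at or below -1.57, while the 2 IVC epiblasts, with no Dnmt3l count, are not drawn.

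The comparison of KO with WT oocytes asks what the loss of the maternal gene leaves in the egg before fertilisation. None of the 3 genes reached 2-fold in the pools. Dnmt3b had the largest log2 ratio of KO to WT, 0.74 (0.66 to 0.81), followed by Dnmt3a at 0.29 (0.27 to 0.32) and Dnmt3l at 0.18 (0.10 to 0.25). For Dnmt3b the ratio passed 2-fold without WT oocyte replicate 2, at 1.05, and between the medians over libraries, at 1.12. The Dnmt3l ratio was 0.08 without that library and 0.48 without WT oocyte replicate 14, and it was -0.41 in the remaining libraries, 2 KO and 1 WT. The library sets are unequally mixed between the genotypes and move with these values. Low-rRNA oocytes had a median Dnmt3b of 45.2 CPM in KO and 43.2 CPM in WT, and spike-in oocytes 17.05 CPM in KO and 8.90 CPM in WT. For Dnmt3a the medians were 243 CPM in KO and 290 CPM in WT low-rRNA oocytes, and 185 CPM in KO and 136 CPM in WT spike-in oocytes. Dnmt3b thus lay higher in the low-rRNA set in both genotypes, by more than KO and WT lay apart within either set.

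Within spike-in oocytes the ratio of KO to WT was 0.75 (0.60 to 0.90) for Dnmt3b, 0.50 (0.46 to 0.54) for Dnmt3a and 0.19 (0.08 to 0.31) for Dnmt3l. Within low-rRNA oocytes it was 0.23 (0.13 to 0.32) for Dnmt3b, -0.09 (-0.12 to -0.05) for Dnmt3a and 0.58 (0.44 to 0.72) for Dnmt3l. Dnmt3a therefore had no direction common to the sets, and all 3 genes overlapped between the genotypes in both. KO oocyte replicate 6, a low-rRNA library, held 11 counts of Dnmt3b, 1.44 CPM, while every other KO oocyte held 9.48 CPM or more. As background, 2.04% of 6325 genes in KO stood 2-fold or more above WT and 2.39% as far below it over all libraries, 9.41% and 3.69% of 6375 genes within spike-in libraries, and 1.98% and 2.03% of 5957 genes within low-rRNA libraries.

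Scaled as CPM, the total level of each gene in 2-cell samples was close between the genotypes. The log2 ratio of KO to WT was -0.14 (-0.20 to -0.08) for Dnmt3a, 0.07 (-0.07 to 0.21) for Dnmt3b and -0.16 (-0.23 to -0.09) for Dnmt3l, and all 3 ranges overlapped. None reached 2-fold, where 31.6% of 8416 genes were lower by that much and 5.96% higher in KO. The median over all genes was -0.35, and under TMM factors, which moved it to 0.18, the ratios of Dnmt3a, Dnmt3b and Dnmt3l were 0.32, 0.53 and 0.30, so the sign for Dnmt3a and Dnmt3l depends on the scaling. Over all genes TMM gave 1457 higher and 1789 lower in KO, where CPM gave 502 and 2658. On the CPM scale the Dnmt3l ratio was 0.00 without WT replicate 8, and the Dnmt3b ratio was -0.15 without KO replicate 7. Spike-in RNA took 0.0478 to 0.0957% of counts in KO and 0.0583 to 0.135% in WT 2-cell libraries. Levels per spike-in count were not computed, so closeness on that scale was not tested.

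The allele tables split the 2-cell counts by parent and showed a difference that the totals in CPM did not. Which strain sired each library is not given, so a difference between fathers could not be told apart from one between genotypes. For Dnmt3l, 70.0% of KO and 66.9% of WT counts were assigned to an allele. Of these, 35 of 2903 in KO were paternal, 1.21% (0.841 to 1.67, exact Clopper-Pearson interval), against 378 of 2129 in WT, 17.8% (16.2 to 19.4). The paternal share per library ran from 0 over a median of 0.882 to 4.04% in KO and from 0.421 over 20.5 to 47.8% in WT. The WT library at 0.421%, with 3 of 712 counts, was replicate 8. The other 7 WT libraries held 12.7% or more, above all 9 KO libraries, and their pool stood at 26.5% (24.2 to 28.8). In KO the pooled share was 0.758% without replicate 5.

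Dnmt3b had the highest paternal share of the 3 genes. Of its allele-assigned counts 58 of 508 were paternal in KO, 11.4% (8.79 to 14.5), against 178 of 333 in WT, 53.5% (47.9 to 58.9). Per library the share ran from 0 over 9.09 to 25.0% in KO and from 4.11 over 59.4 to 84.8% in WT. Replicate 8 was again the lowest WT library, with 3 of 73 counts. The other 7 held 52.0% or more, above all 9 KO libraries, and pooled to 67.3% (61.2 to 73.0). In 7 of 8 WT libraries, and in none of the KO libraries, paternal Dnmt3b counts outnumbered maternal ones. The excess was small in WT replicates 1, 3 and 6, with 13 against 12, 27 against 22 and 14 against 12 counts.

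Dnmt3a had few allele-assigned counts, 13.6% of the total in KO and 9.37% in WT. Of these 27 of 642 were paternal in KO, 4.21% (2.79 to 6.06), against 57 of 335 in WT, 17.01% (13.1 to 21.5), or 22.6% (17.3 to 28.7) without replicate 8. In 6 of 9 KO libraries no paternal count was found, but replicate 3 held 4 of 14, or 28.6%, and replicate 7 held 20 of 150. Without replicate 7 the KO share was 1.42%. The libraries of the genotypes overlapped with and without WT replicate 8.

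**Figure D4:**
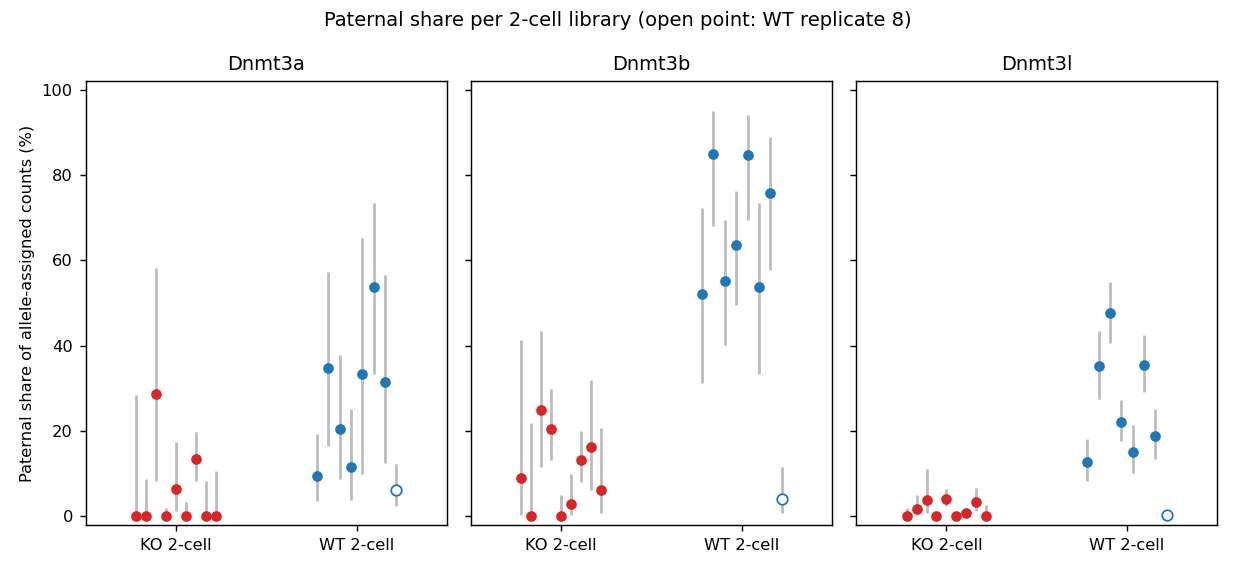
Paternal share of allele-assigned counts, in percent, in each of the 9 KO and 8 WT 2-cell libraries, with exact 95% intervals as grey bars. For Dnmt3b and Dnmt3l all WT libraries other than replicate 8, the open point, lie above every KO library.

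On the CPM scale, the allele-assigned part of each gene was split unequally. Paternal Dnmt3l stood at 0.561 CPM (0.391 to 0.781) in KO and 8.82 CPM (7.95 to 9.76) in WT, while maternal Dnmt3l stood at 46.0 CPM (44.3 to 47.7) in KO and 40.9 CPM (39.0 to 42.8) in WT. Without WT replicate 8, which held 68.8 CPM of maternal Dnmt3l, the WT pool had 11.52 CPM paternal and 32.0 CPM maternal. The KO pool thus had less paternal and more maternal Dnmt3l than the WT pool, as it did over all genes. Summed over all genes, paternal counts made 11050 CPM in KO and 54033 CPM in WT, and maternal counts 384339 and 316388 CPM. Maternal Dnmt3l overlapped between the libraries, at 27.0 to 63.1 CPM in KO and 20.2 to 68.8 CPM in WT. The pools of Dnmt3b differed in the same directions, with 0.930 CPM paternal and 7.22 CPM maternal in KO, against 4.15 and 3.62 CPM in WT. For Dnmt3a there were 0.433 CPM paternal and 9.86 CPM maternal in KO, against 1.33 and 6.49 CPM in WT. Maternal CPM of these 2 genes overlapped between the genotypes too, with and without WT replicate 8.

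**Figure D5:**
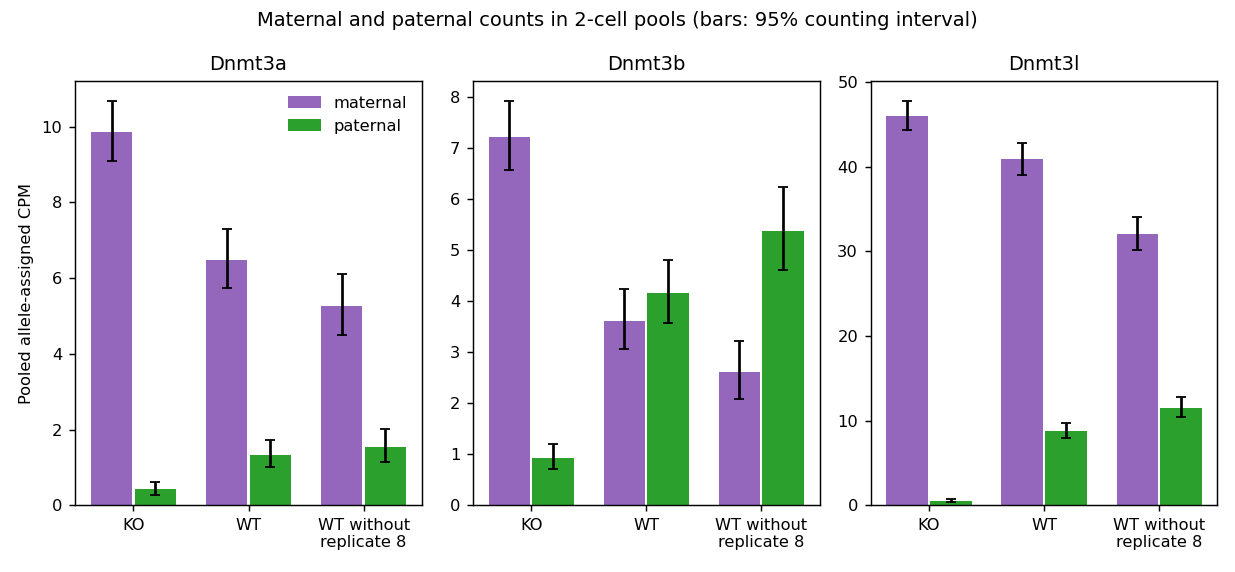
Pooled maternal and paternal allele-assigned CPM of each gene in KO and WT 2-cell samples and in WT without replicate 8, with 95% counting intervals. The pooled paternal bar is lower and the pooled maternal bar higher in KO for all 3 genes, while maternal CPM of single libraries overlapped.

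A lower paternal share in KO was not particular to these genes. Over 9419 genes with 50 or more allele-assigned counts in each pool, the median paternal share was 3.37% in KO and 17.7% in WT, and the median difference was -8.50 percentage points. The differences of Dnmt3l and Dnmt3a, -16.5 and -12.8 points, lay at percentiles 31.7 and 39.8 of these genes. That of Dnmt3b, -42.0 points, lay at percentile 3.16, and its WT share at percentile 91.5. Without WT replicate 8 the WT median was 22.6%, and the Dnmt3b difference was -55.9 points, at percentile 1.30 of 8990 genes. As a background, the summed counts of the 8 oocyte marker genes, which the mother transcribes, were paternal in 0.0733% in KO and 0.289% in WT, or 0.442% without replicate 8. Shares of single genes may also depend on their variants, which was not tested. Kdm1b, a histone demethylase of the oocyte, was called paternal in 99.8% of its allele-assigned counts in KO and 100% in WT. Yet it stood at 338 CPM in KO and 186 CPM in WT oocytes, which were collected before fertilisation. Its allele calls are therefore not read as expression from the father's copy. Oocyte counts were not split by allele in the tables, so the assignment of the 3 genes could not be checked there.

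In epiblast, IVC samples are set against E6.5 samples. Dnmt3b fell to 479 and 396 CPM in IVC samples, against 3508 and 4110 CPM in E6.5 samples, with no overlap. The log2 fold change was -2.84 (SE 0.16), a fall of 7.18-fold, and passed edgeR's quasi-likelihood test at a Benjamini-Hochberg adjusted p of 0.0048 over 11565 genes. Of these, 23.5% were lower and 12% higher in IVC, and the median log2 fold change was -0.85. Leaving out each sample in turn gave 118 to 5476 lower genes, against 2717 with all 4, and Dnmt3b passed each time, at -3.03 to -2.70.

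Dnmt3a stood at 353 and 294 CPM in IVC samples, against 459 and 519 CPM in E6.5 samples. The groups did not overlap, but the log2 fold change of -0.32 (SE 0.18) did not pass the test in edgeR (adjusted p = 0.28), and without IVC replicate 1 it was -0.48 with an adjusted p of 0.047. Dnmt3l had 0 counts in both IVC samples, against 82 and 244 counts, or 6.93 and 10.1 CPM, in E6.5 samples. Set against a floor of 3 counts over the IVC pool, Dnmt3l was at least 62.5-fold lower in IVC. It passed the edgeR test at an adjusted p of 0.040, and lost the call without E6.5 replicate 1 (0.58), without E6.5 replicate 2 (0.60) and without a filter on low counts (0.076). Within a library, the log2 ratio of Dnmt3b to Dnmt3a was 0.44 and 0.43 in IVC samples, against 2.93 and 2.98 in E6.5 samples, a pooled difference of -2.53.

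The epiblast groups also differ in measures other than these genes, and their part in the result was not tested. Rn45s took 0.101 and 0.121% of counts in IVC samples, against 26.2 and 23.3% in E6.5 samples. With Rn45s left out of the totals Dnmt3b stood at 439 CPM in the IVC and 5167 CPM in the E6.5 pool, and the edgeR fold change without that row was -2.90. On those totals Dnmt3a stood at 324 CPM in the IVC and 659 CPM in the E6.5 pool. That was 2.03-fold lower in IVC, where totals with Rn45s gave 1.54-fold and edgeR 1.25-fold. IVC samples had counts for 8380 and 8990 genes, against 13101 and 13698 in E6.5 samples. All 8 epiblast markers had counts in both groups, at a summed 1022 to 1134 CPM in IVC and 1521 to 1887 CPM in E6.5. Of 11 trophoblast markers 6 were at 0 in IVC, Cdx2, Ascl2 and Hand1 among them. The list summed to 6314 to 6450 CPM in IVC and to 7.86 to 31.7 CPM in E6.5, and Prl3d1, a placental lactogen, alone held 6254 to 6259 CPM in IVC. The 8 visceral endoderm markers summed to 423 to 501 CPM in IVC and to 131 to 133 CPM in E6.5, but not all in 1 direction. Ttr stood at 215 CPM in the IVC and 4.52 CPM in the E6.5 pool, and Cubn at 10.2 CPM in the IVC and 70.7 CPM in the E6.5 pool, with Gata4 and Hnf4a also lower in the IVC pool. In such bulk samples fewer cells of a type and less RNA per cell cannot be told apart.

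Genes that work with or against the de novo enzymes were read from a list of 31 symbols, of which 28 are in the tables. Dnmt3c, Whsc1 and Whsc1l1 had no row under those symbols. In IVC epiblast none of 27 tested was higher and 13 were lower in edgeR, 48.1% against a background of 23.5%, with a median of -1.97. Those lowest were Kdm1b, Trdmt1, a tRNA methyltransferase, and Zbtb24, a gene mutated in a human syndrome of lost DNA methylation, all with 0 counts in IVC, and then Cxxc1, a CpG-binding protein, at -6.13 (adjusted p = 0.040). Named after their values were seen, Dnmt1, the maintenance methyltransferase, changed by -3.22 (adjusted p = 0.0077), Nsd1, which writes a mark that recruits DNMT3A, by -1.95 (adjusted p = 0.010), and Kmt2d, a histone H3 methyltransferase, by -2.82 (adjusted p = 0.013), all in edgeR. As with Dnmt3b, the marker lists and Rn45s moved with these values.

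At the 2-cell stage 3 of 24 such genes were at least 2-fold higher and 4 lower in KO than in WT, where 5.96% of all genes were higher and 31.6% lower, with a list median of 0.01. The higher ones were Kdm1b at 1.70, Uhrf1 at 1.43 and Kdm1a, a histone demethylase, at 1.29. The lower ones were Setd2, which methylates histones in transcribed genes, at -2.42, Kdm5b, a demethylase, at -2.32, Mga, a silencing factor, at -1.70, and Nsd3 at -1.16. Dnmt1 stood at 25.4 CPM in KO and 22.5 CPM in WT 2-cell samples, against 511 CPM in KO and 432 CPM in WT oocytes. In KO 2 of 25 list members were higher and 6 lower at the 2-cell stage than in oocytes, and in WT 4 of 24 were higher and 7 lower, with medians of -0.24 in KO and -0.50 in WT. That is 8% higher and 24% lower in KO, where all genes gave 23.6 and 17.4%, and 16.7 and 29.2% in WT, where all genes gave 41.1 and 14.3%. Within spike-in libraries 1 of 24 was higher and 3 lower in KO, where 19.5% of all genes were higher and 16.3% lower. There 5 of 24 were higher and 7 lower in WT, where all genes gave 42.1 and 12.8%. Nsd3 and Kdm5b were among the higher genes in both genotypes, at 1.73 and 1.56 in KO and 2.44 and 3.66 in WT, but Kdm5b was at 0.87 in KO within spike-in libraries, under 2-fold. Dnmt1 and Mphosph8, of the HUSH silencing complex, were the lowest, at -4.33 and -3.10 in KO and -4.26 and -3.12 in WT. In oocytes none of 24 reached 2-fold between KO and WT over all libraries, where 2.04% of all genes were higher and 2.39% lower in KO. Within spike-in libraries Kdm1b did, at 1.23, where 9.41% of all genes were higher and 3.69% lower.

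Of 23 list members with 50 or more allele-assigned counts in each 2-cell pool, 22 had a lower paternal share in KO than in WT, with medians of 6.06% in KO and 25.6% in WT. Kdm1b was among these 22, at 99.8% in KO and 100% in WT, and its allele calls are not read as expression from the father's copy. Over all genes the medians were 3.37% in KO and 17.7% in WT. The upper quartile of the difference was -1.04 percentage points, so most genes were lower in KO, though their share was not counted. The 22 are therefore not read as particular to the list. Kdm1a was paternal in 58.0% in WT, or 65.3% without replicate 8, where Dnmt3b had 53.5% and 67.3%. Without that replicate Kdm1b alone of the list had a higher share than Dnmt3b. Tet3, the oxidase of the zygote, had 0.0924% paternal in KO and 0.445% in WT, near the level of the oocyte markers.

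The genes most like each member were sought by Pearson's r of log2(CPM + 1) over all 54 libraries, among 11287 others at 10 CPM or more in at least 1 group pool. This is a description, since the libraries share stages, kinds of library and library sets. Among the genes most like Dnmt3a were Snrnp70 (r = 0.88), of the U1 spliceosome particle, and Eprs (0.88), a tRNA synthetase. Dnmt3b was most like Rcc2 (0.89), Nedd4 (0.86), a ubiquitin ligase, and the row named RGC-GFP (0.86), which had counts in epiblast alone. Among the 50 single cells r was 0.55 for Rcc2 and 0.55 for Nedd4, so the likeness rested in large part on the epiblasts. Among those most like Dnmt3l were Tubb2a (0.92), a tubulin, and Gdap2 (0.89), and both also had 0 counts in IVC epiblast. Between the members r was 0.58 for Dnmt3a and Dnmt3b, -0.61 for Dnmt3a and Dnmt3l and -0.47 for Dnmt3b and Dnmt3l over the 54 libraries, and 0.39, -0.56 and 0.02 in the 50 single cells.

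Dnmt3aos, an antisense gene inside Dnmt3a with a row of its own, stood at 2.44 CPM in KO and 3.09 CPM in WT oocytes, at 1.20 CPM in KO and 0.420 CPM in WT 2-cell samples, and at 0 in epiblast. Without a stated strand, reads of the antisense pair cannot be told apart, and both rows are counted as deposited. RefSeq also lists a pseudogene of each member, and how reads that match a copy were counted is not given in the sources used here.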

How the data were processed

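Per the deposited tables, the authors' values are raw counts per gene symbol, not normalized: total, maternal and paternal tables for oocytes and 2-cell samples, and 1 table per epiblast group. Build mm9 and STAR 2.6.0a, featureCounts 2.0.1, HTSeq 0.10.0 and cutadapt 1.15 are named in the submitters' processing notes, their roles unstated, as is strand. The 92 spike-in rows were left out, and 24446 symbols joined the epiblast tables. Single-cell counts were summed by group. Genes reaching 10 CPM in at least 1 of the pools compared entered log2 ratios with exact conditional Poisson intervals, and 2-fold counted as higher or lower. For the epiblast, edgeR 4.0.16 was used (quasi-likelihood, TMM, filterByExpr, two-sided, Benjamini-Hochberg adjusted p under 0.05), with DESeq2 1.42.0 as an alternative. The labels name no separate cultures or animals, so p-values measure the spread between these samples. Scripts were tested on simulated data. Named genes were the 3 members, up to 4 list genes with the largest changes each way per comparison, others needed to state a count, and the 3 most alike per member, predicted gene models passed over; some of these are not reported here. Tet3, Dnmt1, Nsd1 and Kmt2d were named after their values were seen. Members and lists were chosen with earlier results of these data known.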

Additional observations from a re-analysis of the deposited data

Results flagged for a closer look

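In 26 groups of 4 to 10 libraries the highest or lowest library was set against its neighbour by Dixon's gap, and 5 stood far from the rest. For independent groups of normally spread values chance gives about 1 in 20. These groups share genes and libraries, and some shares are 0 in several libraries, so the 5 cannot be set against that rate. The Dnmt3b paternal share of WT 2-cell replicate 8, 4.11% of 73 allele-assigned counts, lay far below that of the other WT libraries. The same library held the highest maternal Dnmt3l of its group, 68.8 CPM. WT 2-cell replicate 5 held 31.3 CPM of Dnmt3b, above the 9.44 to 17.7 CPM of the rest. WT 2-cell replicate 6 held 3.70 CPM of paternal Dnmt3a, from 14 counts. KO 2-cell replicate 3 had a Dnmt3a paternal share of 28.6%, from 4 of 14 counts.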

How the results depend on the processing

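No log2 ratio, fold change or share of the 3 genes changed a called direction under any alternative run. Of their values under the alternatives, 351 stayed within the stated spread or on their side of the threshold, 97 moved, and in epiblast 4 lost and 1 gained a call. Among those that moved, some single-cell ratios crossed 2-fold. Dnmt3l fell under it in both stage comparisons under TMM factors, and Dnmt3a in the WT stage comparison within spike-in libraries. Dnmt3b passed it between KO and WT oocytes by medians and without WT oocyte replicate 2, and in the WT stage comparison under TMM factors. Some ratios under 2-fold turned in sign, among them Dnmt3b in KO against WT 2-cell samples, which lay at -0.15 to 0.21 with 1 library left out. The counts of genes moved more. KO against WT oocytes gave 129 genes 2-fold higher and 151 lower. These were 600 and 235 in spike-in libraries, 333 and 240 in the remaining libraries, which was added after seeing the data, 704 and 713 by medians over libraries, 2463 and 3279 without a filter on low counts, and 104 to 285 and 116 to 228 with 1 library left out, highest without WT oocyte replicate 2. KO against WT 2-cell samples gave 502 higher and 2658 lower. There TMM factors gave 1457 higher, DESeq2 size factors 1596 and 1716, medians 808 higher, no filter 2472 and 7749, and 1 library left out 397 to 981 and 2445 to 3187, highest without WT replicate 8. WT 2-cell samples against WT oocytes gave 3507 and 1224, with 1921 and 2921 under TMM, 1829 and 3134 under DESeq2 size factors and 10939 and 2035 unfiltered. KO 2-cell samples against KO oocytes gave 1691 and 1246, with 663 and 2385 under TMM, 609 and 2539 under DESeq2 size factors and 9576 and 2152 unfiltered. The causes were not tested.

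In epiblast 1389 genes were higher and 2717 lower in IVC. Without a filter 631 were lower, and with 1 sample left out 612 to 2880 were higher and 118 to 5476 lower. Each lone sample was then assumed to vary like the other group. With the number as a replicate block 893 were higher and 361 lower, and Dnmt3l lost its call (adjusted p = 0.46 in edgeR), while Dnmt3b kept it at -2.85. The numbers share no source in the labels, and deviations of same-numbered samples correlated at 0.00084. Few allele-assigned counts limit the Dnmt3a shares, with 11 to 196 per KO library and 12 to 114 per WT library.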
